A study of Mus musculus with 18 samples.

Results

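The 10 genes described here mark the mural cells of blood vessels: Acta2, Tagln, Myh11 and Cnn1 of the smooth muscle contractile apparatus, and Pdgfrb, Rgs5, Kcnj8, Abcc9, Vtn and Cspg4 of pericytes. They were chosen by symbol from 25731 genes counted in mouse hearts, and all 10 passed the low-count filter that left 15088 genes for testing. RNA of 18 hearts was sequenced at day 7 after surgery, 1 library per animal, in 3 groups of 6: ischemia-reperfusion plus decursin (IR+Decursin), ischemia-reperfusion alone (IR), and sham surgery (SHAM). Decursin is a plant coumarin, and ischemia-reperfusion means that a coronary vessel is closed for a time and then reopened. All animals were labelled adult male, wild-type C57BL/6 mice. The labels used here do not state the region of heart sampled, how decursin was given or how long ischemia lasted. Each group carries a batch label of its own, so batch and group cannot be told apart here.

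Smooth muscle cells ring arteries and veins and contract through actin and smooth muscle myosin, while pericytes sit on capillaries inside the endothelial basement membrane and are among the most abundant non-muscle cells of the heart. PDGF-B released by endothelium holds mural cells on the vessel through PDGF receptor beta, and an ATP-sensitive potassium channel made of the Kcnj8 and Abcc9 products couples their tone to energy state. Several of these genes are shared with other cells: activated fibroblasts of a healing infarct make smooth muscle actin, transgelin and calponin, fibroblasts carry Pdgfrb, and cardiomyocytes express Abcc9. In whole-heart RNA, fewer cells of a type and less RNA per cell cannot be told apart.

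Libraries held 27.53 to 34.97 M counts, and mitochondrially encoded genes took 20.9 to 27.5% of them in IR+Decursin, 20.1 to 28.3% in IR and 28.4 to 32.8% in SHAM. The X-inactivation transcript Xist had 14072 to 14232 counts in IR 3, IR 4 and IR+Decursin 2, against at most 8 in the other 15 libraries, which goes against the male label of those 3. The gene model Gm26917 took 7.54% of IR+Decursin 6 and 0.915% of IR 1, against at most 0.166% elsewhere. The activated fibroblast list of 10 genes summed to 576 CPM (counts per 1 M counts, with TMM factors) in IR+Decursin 6 and 1436 CPM in IR+Decursin 5, while the other 4 IR+Decursin hearts lay between 4910 and 10420 CPM, the IR hearts between 6808 and 11200 CPM and the SHAM hearts between 447 and 590 CPM. IR+Decursin 6 thus lay within the SHAM range. The cardiomyocyte list of 8 genes summed to 31080 to 68000 CPM over all 18 hearts, and no marker in it was at 0.

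Relative to the bulk of genes, the pericyte genes Vtn, Kcnj8, Abcc9 and Rgs5 and the smooth muscle myosin gene Myh11 fell by 20.8 to 36.4% in IR hearts against SHAM hearts. The actin and actin-binding genes Acta2, Tagln and Cnn1 and the surface genes Pdgfrb and Cspg4 did not pass the test. In all, 5 of 10 genes fell and 0 rose at an adjusted p under 0.05 (edgeR's quasi-likelihood test with Benjamini-Hochberg adjustment over 15088 genes), where 46.9% of all tested genes were called, with falls for 21.7% and rises for 25.3% of all tested genes. The members' share called in either direction was near that of all genes. At an unadjusted p under 0.05 there were 5 of the 10, against 53.7% of all genes. The median log2 fold change of the 10 was -0.25, against -0.0018 over all genes tested. These values rest on TMM factors, which set the bulk of genes equal between libraries; scaled by total counts alone, the median log2 fold change of all genes was 0.31 and that of the 10 was 0.05, and 3 of the 10 genes were called, Tagln and Pdgfrb as rises and Vtn as a fall.

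**Figure D1:**
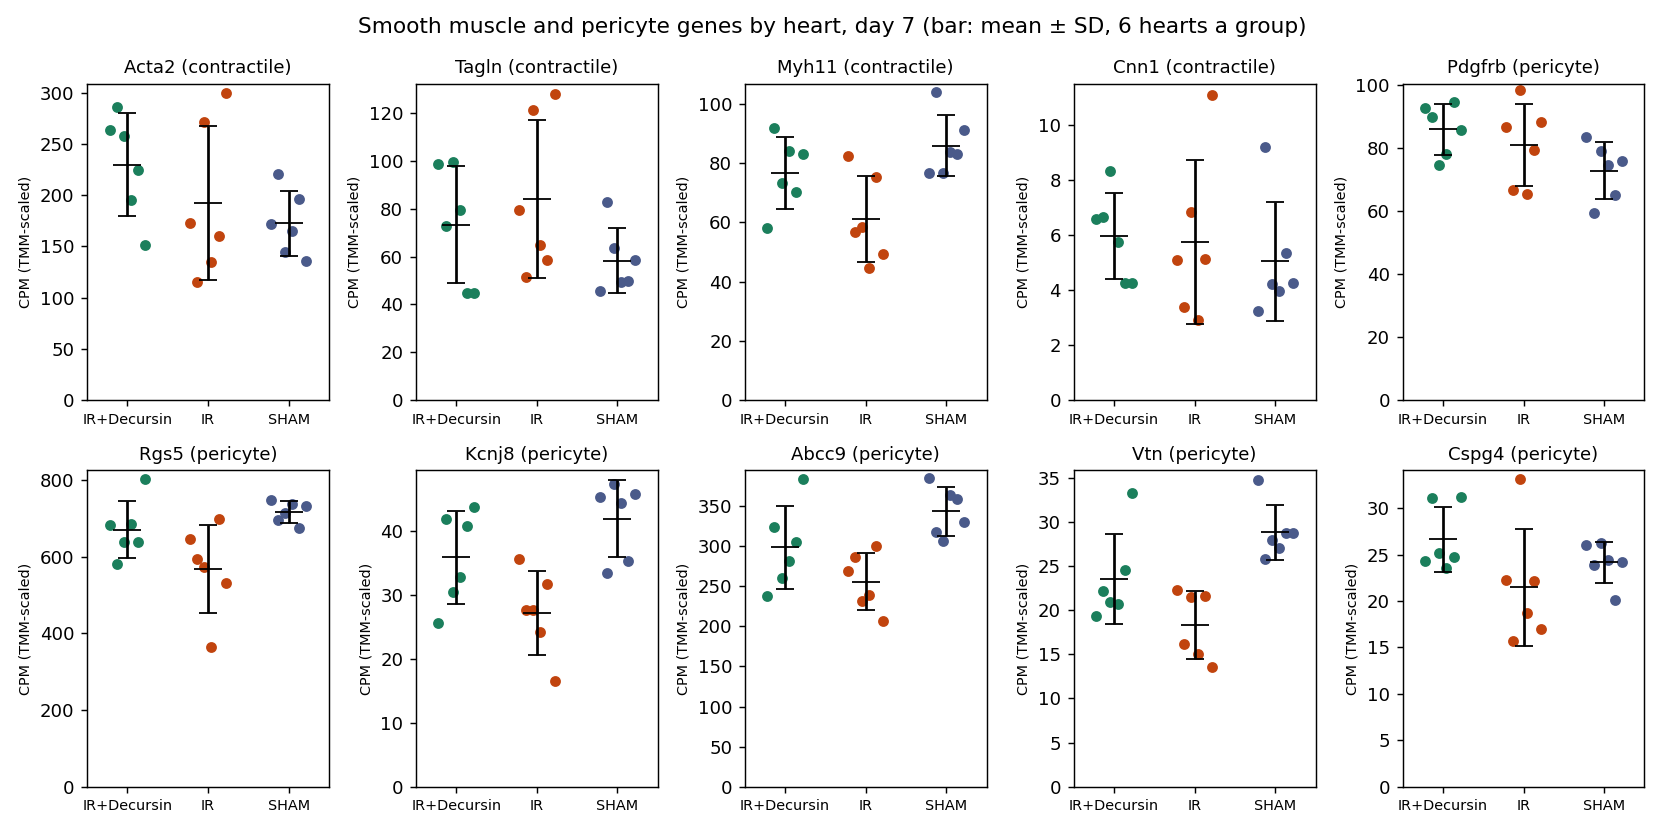
Level of each gene in CPM (TMM-scaled) on the vertical axis, with 1 point per heart for IR+Decursin, IR and SHAM, and a bar for the mean ± SD of 6 hearts. Abcc9 and Vtn lie lower in all 6 IR hearts than in any SHAM heart, while Acta2, Tagln and Cnn1 spread widely within IR.

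On a scale per length (FPKM), Rgs5 was the most abundant of the 10 in SHAM hearts at 138 ± 6.08 FPKM (SD, n = 6), followed by Acta2 at 53.9 ± 9.70, Abcc9 at 37.7 ± 3.54 and Tagln at 32.5 ± 7.21 FPKM. Vtn at 14.6 ± 1.32 and Kcnj8 at 14.6 ± 2.13 FPKM came next, then Myh11 at 11.4 ± 1.29 and Pdgfrb at 10.6 ± 1.28 FPKM, and last Cspg4 at 2.66 ± 0.220 and Cnn1 at 2.10 ± 0.860 FPKM. The pairs Abcc9 and Tagln, Vtn and Kcnj8, Myh11 and Pdgfrb, and Cspg4 and Cnn1 did not differ by more than their spread. In SHAM hearts the pericyte gene Rgs5 exceeded every contractile gene per length. The mean order at the top was Rgs5, Acta2, Tagln, Abcc9 in the other groups: Rgs5 averaged 149 ± 11.4 FPKM in IR+Decursin and 134 ± 23.8 FPKM in IR, and Acta2 85.1 ± 24.1 and 74.1 ± 28.4 FPKM (SD, n = 6 each). Tagln averaged 48.7 ± 19.0 FPKM in IR+Decursin and 57.9 ± 22.4 FPKM in IR, above Abcc9 at 37.9 ± 3.94 and 34.7 ± 4.98 FPKM, a pair whose ranges of mean ± SD overlap in both groups.

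Acta2 encodes alpha smooth muscle actin, the thin filament of smooth muscle and of myofibroblasts. Its lowest, median and highest levels were 151, 241 and 286 CPM in IR+Decursin, 116, 167 and 300 CPM in IR, and 136, 169 and 221 CPM in SHAM. Above the SHAM range lay 4 IR+Decursin hearts and 2 IR hearts, and below it 2 IR hearts. The log2 fold change of IR against SHAM was 0.16 ± 0.22 (SE) and did not pass the test (adjusted p = 0.576, edgeR), and without IR 6 it was -0.01. Its coding sequence is close to those of the cardiac and skeletal actins, of which Actc1 averaged 10770 ± 2684 CPM in IR+Decursin, 6964 ± 1337 CPM in IR and 12230 ± 1171 CPM in SHAM, and the sources do not say how reads matching several genes were counted, so the Acta2 counts are uncertain to that extent.

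Tagln encodes transgelin (SM22), an actin-binding protein of smooth muscle that activated fibroblasts also make. Its lowest, median and highest levels were 44.6, 76.1 and 99.6 CPM in IR+Decursin, 51.5, 72.1 and 128 CPM in IR, and 45.5, 54.3 and 82.8 CPM in SHAM. IR+Decursin 1 and 3 and IR 3 and 6 exceeded every SHAM heart, and IR+Decursin 5 and 6 lay below every SHAM heart. For IR against SHAM the log2 fold change was 0.53 ± 0.26 and did not pass (adjusted p = 0.105, edgeR); with total-count scaling it was 0.83 and passed (adjusted p = 0.0191). Tagln overlaps the gene Pcsk7 on the other strand in GENCODE M21, and since the strand setting of the counting is not given, reads of the 2 genes cannot be told apart where they overlap.

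Cnn1 encodes calponin 1, which binds actin and restrains the myosin ATPase, and it was the least abundant contractile gene. It had 4.24, 6.15 and 8.30 CPM (lowest, median, highest) in IR+Decursin, 2.90, 5.11 and 11.1 CPM in IR, and 3.23, 4.23 and 9.20 CPM in SHAM. All 3 groups overlapped over most of their ranges. The log2 fold change of IR against SHAM was 0.19 ± 0.30 (adjusted p = 0.634, edgeR), and it was -0.11 without IR 6.

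Myh11 encodes the heavy chain of smooth muscle myosin, the contractile marker most restricted to smooth muscle. It ran at 58.0, 78.2 and 92.0 CPM (lowest, median, highest) in IR+Decursin, 44.7, 57.7 and 82.3 CPM in IR, and 76.7, 83.5 and 104 CPM in SHAM. Every IR heart except IR 1 lay below every SHAM heart. Myh11 fell in IR by 0.49 ± 0.14 on the log2 scale (adjusted p = 0.00603, edgeR), and with total-count scaling the difference was -0.19 and did not pass (adjusted p = 0.200). Within single hearts, where scaling cancels, the FPKM ratio of Myh11 to Tagln had a median of 0.276 in IR+Decursin (0.140 to 0.444), 0.205 in IR (0.0917 to 0.305) and 0.383 in SHAM (0.287 to 0.403). Of the 6 IR hearts only IR 5 reached the SHAM range of this ratio.

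The activated fibroblast list holds markers of activated fibroblasts, many of which encode scar matrix. In IR against SHAM, 9 of its 10 genes rose and 1 fell (9 and 0 with total-count scaling), with a median log2 fold change of 3.93, and among the rises were the collagen genes Col3a1 (4.08) and Col1a1 (4.31), tenascin C (Tnc, 6.90) and fibronectin (Fn1, 3.77). The hearts IR 3 and IR 6, highest in Tagln at 121 and 128 CPM and in Acta2 at 271 and 300 CPM, were also the highest in the mean level of this list, at 7.96 and 8.05 in log2(CPM + 1), where the other IR hearts lay between 7.02 and 7.24. IR+Decursin 5 and 6, the lowest in Tagln at 44.8 and 44.6 CPM, had the lowest list levels of their group, at 5.38 and 4.33. Not all hearts were ordered so. SHAM 2 had 82.8 CPM of Tagln, above IR 1, 2, 4 and 5, at a list level of 4.36. IR+Decursin 2, highest of its group in Acta2 at 286 CPM, had a list level of 6.89, below IR+Decursin 1, 3 and 4. The part of activated fibroblasts in the levels of Tagln, Acta2 and Cnn1 was not tested.

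**Figure D2:**
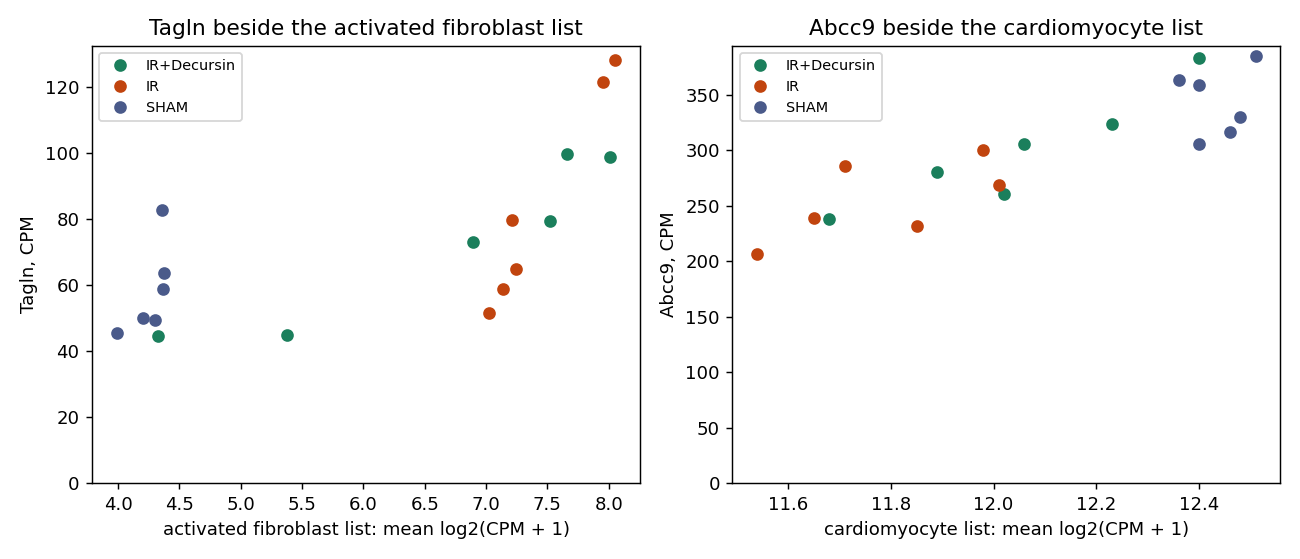
Left, Tagln in CPM against the mean log2(CPM + 1) of the 10 activated fibroblast genes, and right, Abcc9 in CPM against the mean log2(CPM + 1) of the 8 cardiomyocyte genes, 1 point per heart, coloured by group. IR 3 and IR 6 stand at the upper right of the left panel, and IR+Decursin 5 and 6 lie low in both of its measures.

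Kcnj8 encodes Kir6.1, the pore of the vascular ATP-sensitive potassium channel and a pericyte marker, and Abcc9 encodes its regulatory sulfonylurea receptor subunit SUR2; the 2 genes are neighbours on mouse chromosome 6. Kcnj8 had 25.5, 36.7 and 43.6 CPM (lowest, median, highest) in IR+Decursin, 16.5, 27.6 and 35.5 CPM in IR, and 33.4, 44.8 and 47.3 CPM in SHAM. Of the IR hearts, IR 1 alone reached the SHAM range, and of the IR+Decursin hearts 2, 5 and 6 lay in it. Kcnj8 fell in IR by 0.62 ± 0.16 on the log2 scale (adjusted p = 0.00344, edgeR), and with total-count scaling it was -0.32 and did not pass (adjusted p = 0.0680). Abcc9 had 238, 293 and 384 CPM in IR+Decursin, 206, 254 and 300 CPM in IR, and 306, 344 and 385 CPM in SHAM. In CPM the IR and SHAM hearts did not overlap, while in FPKM they did (27.37 to 40.56 in IR and 33.7 to 41.57 in SHAM). Abcc9 fell in IR by 0.43 ± 0.11 (adjusted p = 0.00381, edgeR), and with total-count scaling it was -0.12 (adjusted p = 0.315). An antisense gene, 5330439B14Rik, overlaps Abcc9 in GENCODE M21, and without the strand setting their reads cannot be told apart where they overlap. The FPKM ratio of Kcnj8 to Abcc9 had a median of 0.370 in IR+Decursin, 0.326 in IR and 0.379 in SHAM, with overlapping ranges. Of the other ATP-sensitive channel genes, Kcnj11, the pore of the cardiomyocyte channel, was -0.38 ± 0.16 in IR against SHAM (adjusted p = 0.0562, edgeR), and it passed with DESeq2 (adjusted p = 0.0326) and without IR 1 (-0.47, adjusted p = 0.0298). Abcc8 was -0.03 ± 0.16 in the same comparison. With total-count scaling neither Kcnj11 nor Abcc8 was called, and the median of both was 0.10.

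Vtn encodes vitronectin, an adhesive glycoprotein of plasma and matrix that pericytes transcribe. Its levels were 19.3, 21.6 and 33.3 CPM (lowest, median, highest) in IR+Decursin, 13.6, 18.8 and 22.3 CPM in IR, and 25.8, 28.4 and 34.8 CPM in SHAM. No IR heart reached the lowest SHAM heart in CPM, while in FPKM the groups overlapped (8.314 to 13.8 in IR and 12.65 to 16.72 in SHAM). Vtn fell in IR by 0.65 ± 0.14 on the log2 scale (adjusted p = 0.000706, edgeR), and it was the member whose fall was called under total-count scaling as well. In TMM-scaled CPM, Abcc9 and Vtn were the 2 of 10 genes with every IR heart below every SHAM heart, which held for 11.6% of all tested genes. Genes of proteins that bind vitronectin went the other way: the urokinase receptor gene Plaur (2.06) and the integrin genes Itgb3 (2.59), Itgb5 (0.57) and Itgav (0.85) rose in IR against SHAM under both scalings. Plaur and Itgb3 are also expressed by myeloid cells, and all 8 macrophage genes rose in the same hearts (median 2.01), summing to 618 to 1236 CPM in IR and 189 to 270 CPM in SHAM; their part in these rises was not tested.

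Rgs5 encodes a GTPase-activating protein that shortens signalling from Gq- and Gi-coupled receptors and is the most abundant pericyte gene of the set. Its lowest, median and highest levels were 579, 660 and 802 CPM in IR+Decursin, 364, 583 and 699 CPM in IR, and 675, 722 and 747 CPM in SHAM. IR 5 was the one IR heart within the SHAM range, and IR 4 was the lowest of all 18 hearts. Rgs5 fell in IR by 0.34 ± 0.12 on the log2 scale (adjusted p = 0.0243, edgeR). It did not pass without the 3 libraries that hold Xist, IR 3, IR 4 and IR+Decursin 2 (-0.22, adjusted p = 0.0874), nor with total-count scaling (-0.04, adjusted p = 0.767). SHAM hearts varied little in Rgs5, with a coefficient of variation of 3.90%, against 11.2% in IR+Decursin and 20.4% in IR.

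The sequences before the starts of the 4 pericyte genes that fell are shown because these genes fell in the same comparison. The 150 bases before the most upstream start of RefSeq or GENCODE M21 are given 5′ to 3′ from RefSeq's GRCm38.p6, in the direction of the gene. Capitals mark each match on either strand to the TATA box (TATAAA), to the GC box (GGGCGG) and to the CCAAT box; the 2 TATAAA matches of Vtn, 1 per strand, overlap.
Kcnj8, chr6:142571615-142571764, minus strand: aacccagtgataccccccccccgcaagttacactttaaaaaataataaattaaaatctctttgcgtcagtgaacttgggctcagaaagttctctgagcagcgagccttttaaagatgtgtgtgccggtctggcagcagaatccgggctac
Abcc9, chr6:142702316-142702465, minus strand: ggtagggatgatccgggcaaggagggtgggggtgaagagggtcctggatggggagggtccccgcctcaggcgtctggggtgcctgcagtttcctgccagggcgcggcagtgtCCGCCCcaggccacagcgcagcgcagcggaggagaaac
Vtn, chr11:78498941-78499090, plus strand: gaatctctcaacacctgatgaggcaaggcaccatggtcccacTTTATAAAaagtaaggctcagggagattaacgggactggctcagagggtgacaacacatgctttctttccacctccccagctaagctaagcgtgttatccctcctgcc
Rgs5, chr1:169655351-169655500, plus strand: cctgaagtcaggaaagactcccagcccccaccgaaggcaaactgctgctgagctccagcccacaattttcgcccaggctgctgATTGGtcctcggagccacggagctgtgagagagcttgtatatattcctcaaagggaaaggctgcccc
Of all 32851 RefSeq promoter windows of 150 bases before the RefSeq start, 7.57% held the TATA box, 28.6% the GC box and 24.5% the CCAAT box on either strand. The printed windows of Abcc9 and Vtn end at a GENCODE start upstream of the RefSeq start, so they are placed unlike these. The Vtn matches begin at -108 and -106 from the start used. None of these 3 motifs was in the Kcnj8 window, and the CArG box of SRF, present in 0.916% of all windows, was in none of the 4. A promoter window was at hand for 7 of the 10 genes, and none was at hand for Tagln, Myh11 and Pdgfrb. The window of Acta2 held 33 bases before the start used, short of 150, so it was not searched for motifs.

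Pdgfrb encodes PDGF receptor beta, which holds mural cells on vessels and is also found on fibroblasts. Its lowest, median and highest levels were 74.6, 88.0 and 94.8 CPM in IR+Decursin, 65.5, 83.2 and 98.6 CPM in IR, and 59.3, 75.3 and 83.4 CPM in SHAM. The groups overlapped, with 3 IR hearts above every SHAM heart and none below. Its log2 fold change in IR against SHAM was 0.15 ± 0.10 (95% interval -0.07 to 0.37, adjusted p = 0.246, edgeR), and with total-count scaling 0.45 (adjusted p = 0.00186). Of the 5 other PDGF genes 3 rose in IR and 0 fell, the receptor gene of fibroblasts Pdgfra (0.92) and the ligand genes Pdgfc (1.08) and Pdgfa (0.38); with total-count scaling all 5 rose.

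Cspg4 encodes the proteoglycan NG2 of the mural cell surface, which also occurs on glial precursors. It had 23.5, 24.9 and 31.2 CPM (lowest, median, highest) in IR+Decursin, 15.7, 20.4 and 33.2 CPM in IR, and 20.2, 24.3 and 26.3 CPM in SHAM. IR 3 stood above all SHAM hearts and IR 2, IR 4 and IR 6 below them. The log2 fold change of IR against SHAM was -0.17 ± 0.14 (adjusted p = 0.339, edgeR). Without IR 3 it was -0.34 and passed (adjusted p = 0.0170), as it did without the libraries with Xist (-0.33, adjusted p = 0.0341), while with total-count scaling it was 0.14 (adjusted p = 0.417).

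Ratios between members within a heart do not depend on the scaling. Of the 45 pairs of members, set out after their values were seen, 4 had FPKM ratios with no overlap between IR and SHAM: Kcnj8, Vtn and Rgs5 relative to Pdgfrb, and Vtn relative to Cspg4. For Kcnj8 to Pdgfrb the ratio was 0.660, 1.02 and 1.22 (lowest, median, highest) in IR+Decursin, 0.448, 0.918 and 0.994 in IR, and 1.30, 1.39 and 1.44 in SHAM. IR+Decursin did not overlap SHAM in this ratio either, which held for 1 of the 45 pairs. The ratio of Vtn to Pdgfrb was 0.729, 0.918 and 1.36 in IR+Decursin, 0.537, 0.824 and 0.947 in IR, and 1.24, 1.39 and 1.55 in SHAM. Rgs5 stood at 8.53, 10.5 and 12.4 times Pdgfrb in IR+Decursin, 7.38, 8.89 and 11.8 times in IR, and 11.9, 13.0 and 15.5 times in SHAM. In each of these 3 ratios every IR heart was below every SHAM heart. The 45 ratios share genes and are given with no test, and the share over pairs of all genes is not given here. Of single genes in TMM-scaled CPM, every IR heart was above every SHAM heart for 15.4% and below for 11.6%.

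**Figure D3:**
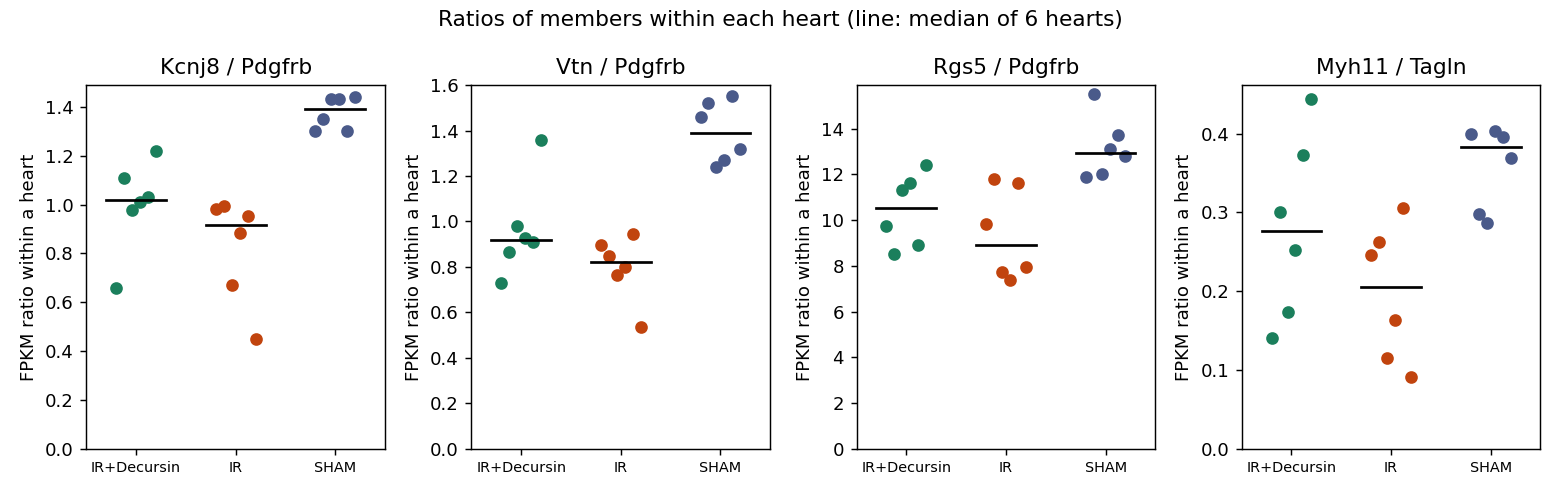
FPKM ratio within each heart on the vertical axis for Kcnj8, Vtn and Rgs5 to Pdgfrb and for Myh11 to Tagln, with 1 point per heart in IR+Decursin, IR and SHAM and a line at the median of 6 hearts. The ratios to Pdgfrb do not overlap between IR and SHAM.

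In TMM-scaled CPM, the means of Vtn, Kcnj8, Abcc9, Rgs5 and Myh11 in IR+Decursin hearts lay between those of IR and SHAM hearts. These genes are the ones called as falls in the same IR hearts. In FPKM, Vtn and Kcnj8 stayed between. The IR+Decursin means of the others were then above SHAM: Rgs5 at 149.4 against 137.8, Myh11 at 11.85 against 11.39 and Abcc9 at 37.85 against 37.74 FPKM. With treatment, 9 of the 10 genes were higher than in IR and Tagln was lower, but 0 of 10 passed edgeR's quasi-likelihood test, as did 0 of all 15088 genes (0% called); 4 of 10 had an unadjusted p under 0.05, against 18.0% of all genes. No member had every IR+Decursin heart above every IR heart, which held for 0.272% of all genes, or below it, which held for 0.245%. DESeq2 called 374 genes higher and 96 lower, and 0 of the 10. The largest difference was that of Kcnj8 at 0.40 ± 0.16 on the log2 scale (95% interval 0.06 to 0.74, adjusted p = 0.213), followed by Vtn at 0.36 ± 0.14 (adjusted p = 0.200), Myh11 at 0.33 ± 0.14 (adjusted p = 0.227) and Cspg4 at 0.31 ± 0.14 (adjusted p = 0.253). Rgs5 was 0.24 ± 0.12 and Abcc9 0.23 ± 0.11 higher. In TMM-scaled CPM, all 6 IR+Decursin hearts exceeded the IR mean of Vtn, Rgs5 and Cspg4, and 3 exceeded every IR heart in Kcnj8, Abcc9 and Myh11. In FPKM, IR+Decursin 2 alone (43.79) exceeded the highest IR heart in Abcc9 (40.56). IR+Decursin 2 and 4 (15.04 and 13.6) did so in Myh11 (12.28), and IR+Decursin 2, 4, 5 and 6 in Kcnj8 (13.79). On the log2 scale, Acta2 was 0.26 ± 0.22 (95% interval -0.20 to 0.72), Pdgfrb 0.09 ± 0.10, Cnn1 0.06 ± 0.30 and Tagln -0.20 ± 0.26 (95% interval -0.75 to 0.35). Beside these values, all 8 cardiomyocyte genes were also higher in IR+Decursin than in IR (median 0.28) and all 8 macrophage genes lower (median -0.73), none of them called.

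IR+Decursin against SHAM gave 0 calls among the 10 genes with edgeR, where 29.3% of all tested genes were called; 2 of 10, Pdgfrb and Vtn, had an unadjusted p under 0.05, against 40.3% of all genes. No member had every IR+Decursin heart above every SHAM heart, which held for 4.44% of all genes, or below it, which held for 2.90%. DESeq2 called 0 of the 10. This comparison shares the SHAM hearts with IR against SHAM and the treated hearts with IR+Decursin against IR. Vtn was -0.30 ± 0.14 (adjusted p = 0.112), Kcnj8 -0.23 ± 0.16 (adjusted p = 0.304), Abcc9 -0.20 ± 0.11 (adjusted p = 0.186), Myh11 -0.16 ± 0.14 (adjusted p = 0.397) and Rgs5 -0.10 ± 0.12 (adjusted p = 0.580). Acta2 was 0.41 ± 0.22 (adjusted p = 0.161), Tagln 0.33 ± 0.26, Cnn1 0.25 ± 0.30, Pdgfrb 0.24 ± 0.10 (adjusted p = 0.0914) and Cspg4 0.14 ± 0.14. IR+Decursin 6 had the highest Rgs5, Kcnj8, Abcc9 and Vtn of its group in TMM-scaled CPM, though in FPKM the highest Vtn alone. Without this heart, Vtn (-0.42, adjusted p = 0.0121, edgeR) and Abcc9 (-0.29, adjusted p = 0.0396, edgeR) were called as falls. The same 2 genes were called without both libraries high in Gm26917. With total-count scaling, Acta2 (0.66, adjusted p = 0.0381) and Pdgfrb (0.46, adjusted p = 0.00344) were called as rises.

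**Figure D4:**
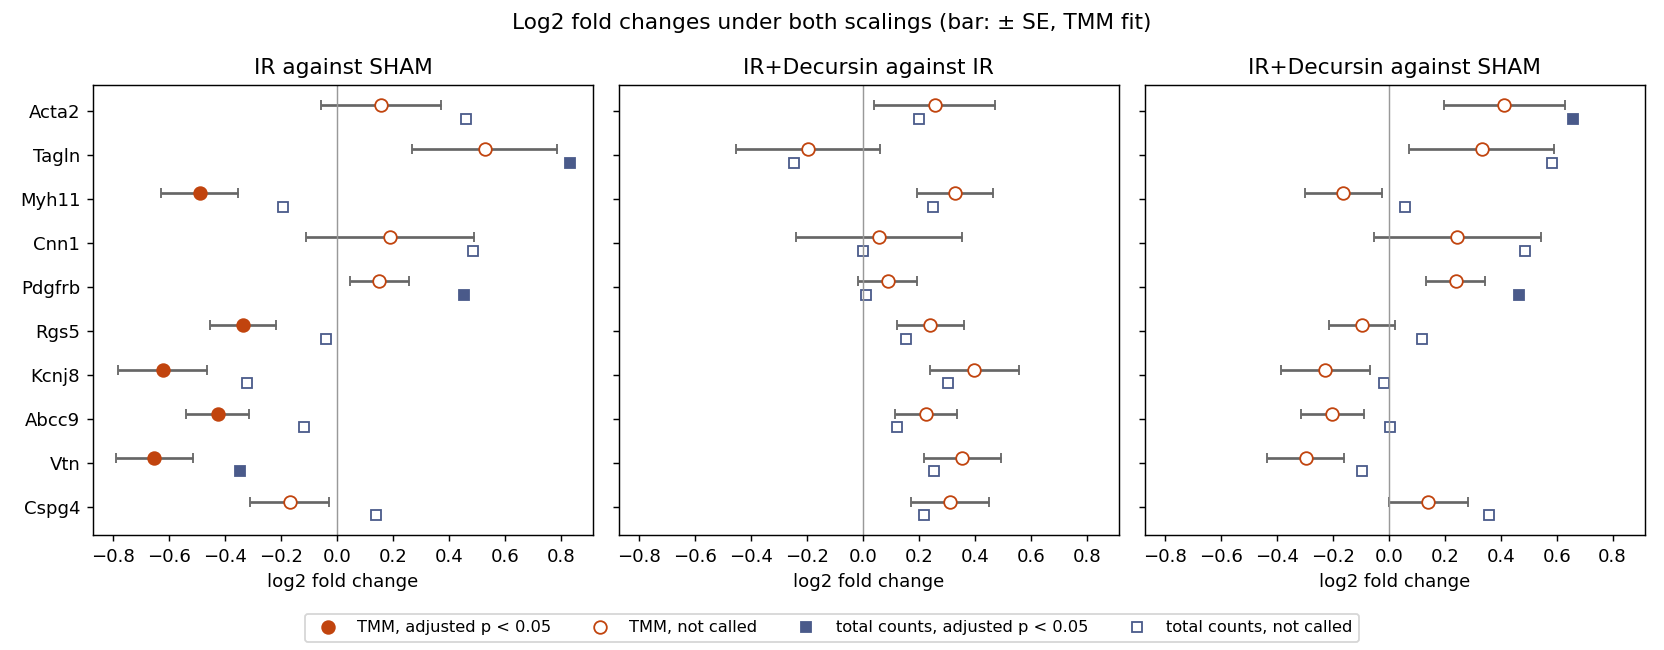
Log2 fold change on the horizontal axis for each gene in the 3 comparisons, with circles for TMM factors (bar: ± SE) and squares for total-count scaling, filled where the adjusted p is under 0.05. In IR against SHAM the filled circles are Myh11, Rgs5, Kcnj8, Abcc9 and Vtn, and total-count values lie to the right of the circles.

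Some hearts stood out from their group in several members, as seen after the values were known. IR 6 had the highest Acta2, Tagln and Cnn1 of the IR hearts and the lowest Kcnj8, Abcc9 and Vtn, at 16.5, 206 and 13.6 CPM. IR+Decursin 6 went the other way in CPM, lowest of its group in Acta2, Tagln and Cnn1 and highest in Kcnj8, Abcc9, Vtn and Rgs5. Its TMM factor was 0.831, against 1.032 to 1.125 in the other IR+Decursin libraries. In FPKM it stayed highest in Vtn alone of these genes. Kcnj8 and Abcc9 were then highest in IR+Decursin 2 (17.89 and 43.79 FPKM, against 14.23 and 39.55 in IR+Decursin 6). Rgs5 was highest in IR+Decursin 1 (166.6 against 144.8 FPKM). IR 6 and IR+Decursin 6 were also the lowest and the highest of their groups in the cardiomyocyte list, at 11.5 and 12.4 in log2(CPM + 1). These levels carry the TMM factors. The list summed to 59700 CPM in IR+Decursin 6 (factor 0.831) and to 55790 CPM in IR+Decursin 2 (factor 1.092). Without the factors IR+Decursin 2 would thus rank above IR+Decursin 6. In IR against SHAM the 8 cardiomyocyte genes fell (median -0.58; 5 of 8 with total-count scaling, median -0.27), among them the myoglobin gene Mb (-0.89), Pln, the brake on the calcium pump (-0.50), Myl2 (-0.91) and Tnni3 (-0.73). Of 10 endothelial genes 1 rose, Vwf (0.69), and 2 fell, Tie1 (-0.32) and Emcn (-0.18), with a median of -0.17; with total-count scaling 2 rose and 0 fell, and without IR 4 Emcn did not pass (-0.14, adjusted p = 0.116). What part cardiomyocyte RNA has in the falls of Abcc9, Kcnj8 and Vtn was not tested.

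**Figure D5:**
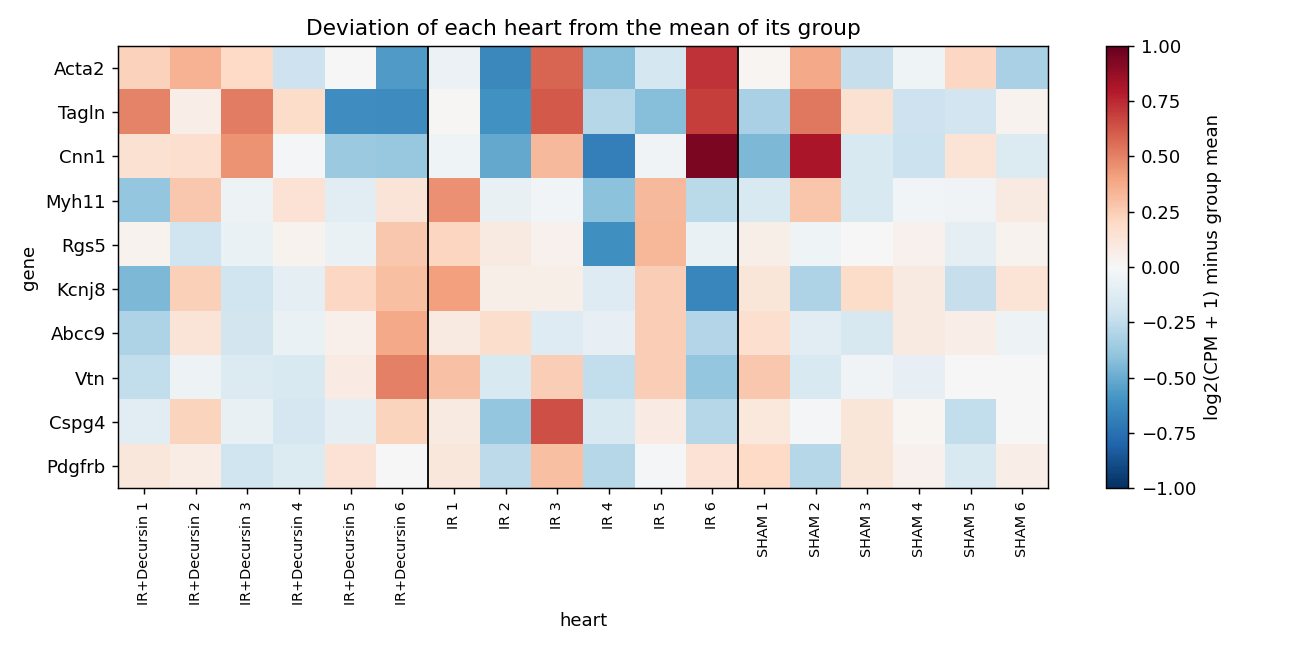
Deviation of each heart from its group mean in log2(CPM + 1), coloured from blue (lower) to red (higher), with genes in rows and the 18 hearts in columns in the order IR+Decursin, IR, SHAM. In IR 6 the rows of Acta2, Tagln and Cnn1 are red while those of Kcnj8, Abcc9 and Vtn are blue, and IR+Decursin 6 shows the opposite colours.

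Likeness was measured as Pearson's r of the deviations from the group means over 18 libraries, against 11626 genes with a mean of at least 2 CPM; all genes share the libraries and their scaling, and the values are descriptions. Acta2 was most like Cx3cl1 (0.882), the collagen-binding integrin gene Itga11 (0.863) and Cnn1 (0.828), and Tagln was most like Postn, a matricellular gene of activated fibroblasts (0.920), Ltbp2, of the TGF-beta latency binding proteins (0.901), and Pgm2 (0.900). Cnn1 was closest to Ltv1 (0.941), Pdlim1 (0.870) and Tagln (0.831). Myh11 stood apart from these, nearest to the mitochondrial genes Iscu (0.845), Idh2 (0.833) and Ivd (0.826). Among pericyte genes, Abcc9 was closest to Kcnj11 (0.931), the muscle hexokinase gene Hk2 (0.928) and Efnb3 (0.925), and Vtn to the mitochondrial genes Coq10a (0.919), Atp5a1 (0.919) and Sdha (0.916). Kcnj8 was nearest to Ushbp1 (0.921), Pfkfb1 (0.919) and Tmub2 (0.915), and Rgs5 to Pkia (0.888), Ccser2 (0.845) and Uaca (0.835). Pdgfrb was nearest to Arpin (0.805), Fam171a1 (0.790) and Plekhh2 (0.770), and Cspg4 to Dok4 (0.825), Mtch1 (0.810) and Ndrg4 (0.806).

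Further genes of smooth muscle moved in both directions. Of 15 others, 3 rose in IR against SHAM, and 5 fell (5 and 2 with total-count scaling). Among actin-binding genes, Csrp1 rose by 0.64 ± 0.15 (adjusted p = 0.00150, edgeR), Tpm2, a tropomyosin, by 0.63 ± 0.15 (adjusted p = 0.00165) and Cald1, caldesmon, by 0.68 ± 0.16 (adjusted p = 0.00169). Synpo2, an actin-bundling gene of muscle Z-discs, fell by 0.59 ± 0.12 (adjusted p = 0.000434), and Itga8, an integrin chain of smooth muscle, fell by 0.91 ± 0.21 (adjusted p = 0.00125). Against SHAM, 4 of the 15 rose in IR+Decursin and 0 fell, Tpm2 (0.56), Cald1 (0.56), Csrp1 (0.52) and Actg2, the enteric smooth muscle actin (0.92); with total-count scaling 7 rose and 0 fell. Actg2 did not pass without IR+Decursin 1 (0.74, adjusted p = 0.115) or with any of several other hearts left out. Of 9 regulators tested, Mrtfa, a coactivator of SRF that responds to actin assembly, rose in IR by 0.80 ± 0.12 (adjusted p = 2.04e-05) and in IR+Decursin against SHAM by 0.75. The Notch ligand gene Jag1 rose in IR by 0.49. Myocd, the myocardin gene that drives contractile genes in smooth and cardiac muscle, fell in IR by 0.40 ± 0.13 (adjusted p = 0.0134), and with total-count scaling it was -0.10 (adjusted p = 0.542).

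Further pericyte genes were called in both directions. Of 17 others 4 rose and 2 fell in IR against SHAM, with a median of 0.08, and with total-count scaling 11 rose and 2 fell. Anpep, the aminopeptidase N gene, which myeloid cells and fibroblasts also express, rose by 1.90 ± 0.22 (adjusted p = 5.77e-06), and Foxs1, a transcription factor of pericytes, rose by 0.73. Cox4i2, a pericyte-enriched subunit of cytochrome oxidase, fell by 0.74 ± 0.15 (adjusted p = 0.000576), as did Art3 by 0.63 ± 0.14 (adjusted p = 0.00111). Of the same 17 genes 3 rose in IR+Decursin against SHAM, Anpep (1.39), the cell adhesion gene Mcam (0.47) and Ndufa4l2 (0.32), and Art3 fell (-0.39); with total-count scaling 9 rose and 0 fell, and Art3 was -0.18 (adjusted p = 0.225). Without SHAM 6, Art3 did not pass (-0.31, adjusted p = 0.106), nor did Ndufa4l2 without SHAM 2 (0.24, adjusted p = 0.110) or Mcam without IR+Decursin 1 (0.35, adjusted p = 0.0611). Of 7 receptors for vasoactive ligands tested, the alpha-1 adrenergic receptor genes Adra1a (-0.49) and Adra1d (-0.61) fell in IR against SHAM, and 0 rose; with total-count scaling 2 of the 7 rose and 0 fell. Without SHAM 5, Adra1d did not pass (-0.51, adjusted p = 0.0999). None of these 15, 9, 17 and 7 genes passed edgeR's test in IR+Decursin against IR.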

How the data were processed

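The series holds 18 heart libraries, 1 from each mouse, with groups and replicate numbers as labelled. The authors deposited unnormalized counts for each symbol and FPKM values that equal the deposited counts scaled to gene length and library total (largest relative deviation 1.58e-09 over 347198 values above 0). The tools named are fastp, HISAT2 and HTSeq, and the build GRCm39, per the submitters' processing notes. No source gives their versions, the strand setting or the annotation; the reference at hand is GRCm38.p6 and served for promoters and neighbours only.

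Counts of 15088 genes passing filterByExpr were fitted in edgeR 4.0.16 (R 4.3.3) with TMM factors, a mean per group and robust quasi-likelihood dispersion over all 18 libraries. Tests were two-sided, with Benjamini-Hochberg adjustment over all genes tested and a threshold of 0.05. Levels are CPM with TMM factors; levels between genes are FPKM. The 95% intervals use the SE and 15 residual degrees of freedom. Alternatives used DESeq2 1.42.0, limma 3.58.1 on log2(FPKM + 1) and log2(FPKM + 0.1), other scalings and filters, a replicate block, and left-out libraries. Scripts were tested on simulated data.

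The 10 genes and the other lists were chosen with earlier results of these data known. From each other list, up to 4 called genes with the smallest adjusted p per comparison were to be named; Cald1 in IR against SHAM was named beyond that rule, after its values were seen. One gene of the vitronectin partner list is not reported here. The 45 ratios were chosen after the values were seen.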

Additional observations from a re-analysis of the deposited data

Results flagged for a closer look

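In 3 of the 30 sets of 6 hearts (10 genes in 3 groups), 1 heart lay so far out that its gap to the next exceeded the 95% critical value of Dixon's test for 6 samples, where chance gives about 1 in 20. Cspg4 was 33.2 CPM in IR 3, one of the libraries with Xist counts, against 15.7 to 22.3 CPM in the other IR hearts. Cnn1 was 9.20 CPM in SHAM 2, against 3.23 to 5.34 CPM in the other SHAM hearts. Vtn was 34.8 CPM in SHAM 1, against 25.8 to 28.8 CPM in the other SHAM hearts.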

How the results depend on the processing

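The count of members called in IR against SHAM was 5 and stayed there under RLE factors, both filters, DESeq2 and the compared groups alone. It also stayed there under scaling without mitochondrial and haemoglobin genes, the replicate block and both sets of left-out libraries. Without the libraries with Xist the 5 were not the same genes. Rgs5 was no longer called (adjusted p = 0.0874, edgeR) and Cspg4 was called as a fall (adjusted p = 0.0341, edgeR). The count was 3 with total-count scaling and on log2(FPKM + 1) and log2(FPKM + 0.1), which carry no composition factors. These 3 were Tagln and Pdgfrb as rises and Vtn as a fall, while Myh11, Rgs5, Kcnj8 and Abcc9 were no longer called. With 1 library left out the count was 5 to 6. In IR+Decursin against IR it was 0 under every alternative run. In IR+Decursin against SHAM it was 0, but 2 with total-count scaling, 1 on either FPKM scale, 1 with the compared groups alone, 2 without the libraries high in Gm26917, an alternative chosen after seeing the data, and 0 to 2 with 1 library left out; the cause was not tested. Signs turned for differences that did not pass: in IR against SHAM, Cspg4 was 0.14 with total counts and 0.0782 and 0.0947 on the FPKM scales. In IR+Decursin against SHAM, Myh11 was 0.0569, 0.0442 and 0.047, Rgs5 0.12, 0.11 and 0.11, and Abcc9 0.0043, 0.0028 and 0.0029 in the same order. Emcn in IR against SHAM, called as a fall, was 0.12 under each. Cnn1 in IR+Decursin against IR was -0.0833 without the libraries with Xist.

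With 1 library left out, Acta2 in IR against SHAM ranged from -0.0135 to 0.27, Cnn1 from -0.11 to 0.45, and Cnn1 in IR+Decursin against IR from -0.0799 to 0.35. Over all genes, total-count scaling gave 7012 rises and 1056 falls in IR against SHAM, in place of 3810 and 3269, and 4781 and 377 in IR+Decursin against SHAM, in place of 2647 and 1774. In IR+Decursin against IR edgeR called 0 genes, DESeq2 374 and 96, and edgeR without IR+Decursin 1 called 696 and 280. Same-numbered samples did not clearly deviate together: 3 of 18 pairs had a correlation over 0.1, and 4 of 18 libraries were closest to their own number. No pairing by number was seen, but a weak one could escape this check. The replicate block left the member counts at 5, 0 and 0. Under it Emcn in IR against SHAM (-0.18, adjusted p = 0.0687, edgeR) and Ndufa4l2 in IR+Decursin against SHAM (0.32, adjusted p = 0.0555, edgeR) did not pass. Among the named genes' differences over all alternatives, 2506 kept direction and side of the threshold, 25 newly passed, 109 no longer passed and 21 changed sign.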

Other observations

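Lists of other cell types are given by their summed levels and calls. The 5 Schwann cell genes summed to 14.5 to 22.5 CPM in IR+Decursin, 17.5 to 26.8 CPM in IR and 13.7 to 16.9 CPM in SHAM, and 1 of them, the myelin gene Mbp, rose in IR against SHAM (1.70). Epicardial genes summed to 8.49 to 28.6 CPM in IR+Decursin, 10.6 to 32.1 CPM in IR and 5.91 to 8.73 CPM in SHAM, and 4 of 5 rose in IR against SHAM, Msln (3.03 CPM on average in IR and 0.0568 CPM in SHAM), Upk1b (1.60 and 0.0243 CPM), Upk3b (2.45 and 0.164 CPM) and Tbx18 (6.28 and 3.83 CPM). Msln and Upk1b were at 0 in some hearts. The 4 atrial genes ranged from 11.1 to 684 CPM in IR+Decursin, 7.22 to 582 CPM in IR and 48.1 to 149 CPM in SHAM, with 0 of 3 tested called; IR+Decursin 6 and IR 2 held the highest sums. The 5 adipocyte genes summed to 18.4 to 35.5 CPM in IR+Decursin, 21.0 to 32.1 CPM in IR and 23.0 to 30.8 CPM in SHAM, with 0 of 2 tested called. The 8 resident fibroblast genes summed to 2102 to 2626 CPM in IR+Decursin, 1893 to 2534 CPM in IR and 2068 to 2656 CPM in SHAM. Of these 8 genes 5 rose and 1 fell in IR against SHAM, Pdgfra (0.92), Lum (0.92) and Dpt (0.48) among the rises and Gsn (-0.66) as the fall.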
